A study of Bos taurus with 48 samples.

Results

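The endometrial levels of PCK1 and TFAP2C were described in pregnant and cyclic dairy cows slaughtered on day 17. They are 2 genes of an array of 21475 probes, found as the probes that the array design names PCK1 or TFAP2C, and each was carried by 1 probe printed in 2 spots. PCK1 is NM_174737 in the design, and the TFAP2C probe (LOC511317, XM_866604) is annotated there as similar to human transcription factor AP-2 gamma. Both genes were chosen by the difference of their values on these same arrays between pregnant cows labelled fertile and pregnant cows labelled sub-fertile. That difference is therefore given as a description without a test. Pregnancy, embryo size and tissue were tested.

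The series holds caruncular and intercaruncular endometrium of 22 lactating Holstein Friesian cows of mixed New Zealand and North American ancestry with synchronized estrous cycles. Of these cows, 12 had received a grade 1 embryo on day 7 and were pregnant, and 10 were cyclic and had received none. The labels class 6 pregnant cows as fertile and 6 as sub-fertile, and neither the labels nor the methods say how these classes were set. They also give an embryo size, with 7 large embryos (over 20 cm and over 75 mg) and 5 small ones (under 20 cm and under 40 mg). The fertile class held 3 large and 3 small embryos and the sub-fertile class 4 large and 2 small. Cyclic cows carry no fertility label. The ages of the cows are not given in the sources used here.

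Phosphoenolpyruvate carboxykinase 1, the product of PCK1, is the cytosolic enzyme that turns oxaloacetate into phosphoenolpyruvate. It is known as a controlled step of gluconeogenesis in liver and kidney, and of the making of glycerol phosphate for triglycerides in fat tissue, and its transcription responds to cyclic AMP, glucocorticoids and insulin. TFAP2C encodes a DNA-binding transcription factor of the AP-2 family. It is best known from the trophoblast, the outer layer of the embryo, and from skin and mammary epithelium. The caruncles of ruminant endometrium are the gland-free areas where the placenta attaches, and the intercaruncular endometrium between them carries the glands.

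Cy5 marked the sample on each array and Cy3 a pool of the 44 samples, so a value is a log2 ratio of the sample to that pool. A ratio of 0 means the level of the pool, and levels cannot be compared between the 2 genes. Samples were spread over 12 slides of 4 arrays in 3 scan batches. For 4 cows the caruncular sample had a repeat array, which was averaged with the first, and the repeats differed from the first arrays by 0.00 to 0.24 for PCK1 and by 0.02 to 0.21 for TFAP2C. Between 68.7% and 85.4% of the probes were well above background on an array. The TFAP2C signal was well above background in all 44 samples. The PCK1 signal was dimmer and was well above background in all 22 intercaruncular samples but in 16 of 22 caruncular ones. Its 2 spots differed by a median of 0.16, and at most by 1.31, on the log2 scale, against 0.08 and 0.37 for TFAP2C. In whole tissue, fewer cells of a type and less RNA per cell cannot be told apart.

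PCK1 was higher in the fertile than in the sub-fertile cows of both tissues, and TFAP2C was lower. In intercaruncular endometrium the PCK1 ratio of the 6 fertile cows ran from 0.42 over a median of 0.75 to 1.20. The 6 sub-fertile cows ran from -0.79 over a median of -0.39 to 0.12, so the classes lay 0.30 apart without overlap. The means were 0.81 ± 0.30 (SD, n = 6) and -0.36 ± 0.39 (SD, n = 6), a difference of 1.17, or 2.25-fold. In caruncular endometrium the fertile cows ran from -0.76 over a median of -0.49 to -0.13, and the sub-fertile cows from -2.14 over a median of -1.50 to -1.04. Again the classes did not overlap, with a gap of 0.28 and a difference of 1.07, or 2.10-fold. Of the 6 sub-fertile caruncular samples, 3 had a PCK1 signal well above background, against 6 of 6 fertile ones, and the highest sub-fertile signal was 79.1 units.

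TFAP2C showed the opposite order. In intercaruncular endometrium the fertile cows ran from -1.43 over a median of -0.91 to -0.71, and the sub-fertile cows from 0.30 over a median of 0.75 to 1.60. The classes were 1.00 apart, and their means of -1.02 ± 0.33 and 0.78 ± 0.47 (SD, n = 6 each) differed by -1.80, or 3.49-fold. In caruncular endometrium the fertile cows were more spread, from -0.92 over a median of -0.42 to 0.59, and the sub-fertile cows ran from 0.50 over a median of 1.00 to 1.24. Here the classes overlapped through 1 fertile cow at 0.59 and 1 sub-fertile cow at 0.50. The difference of the means was -1.27, or 2.42-fold.

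**Figure D1:**
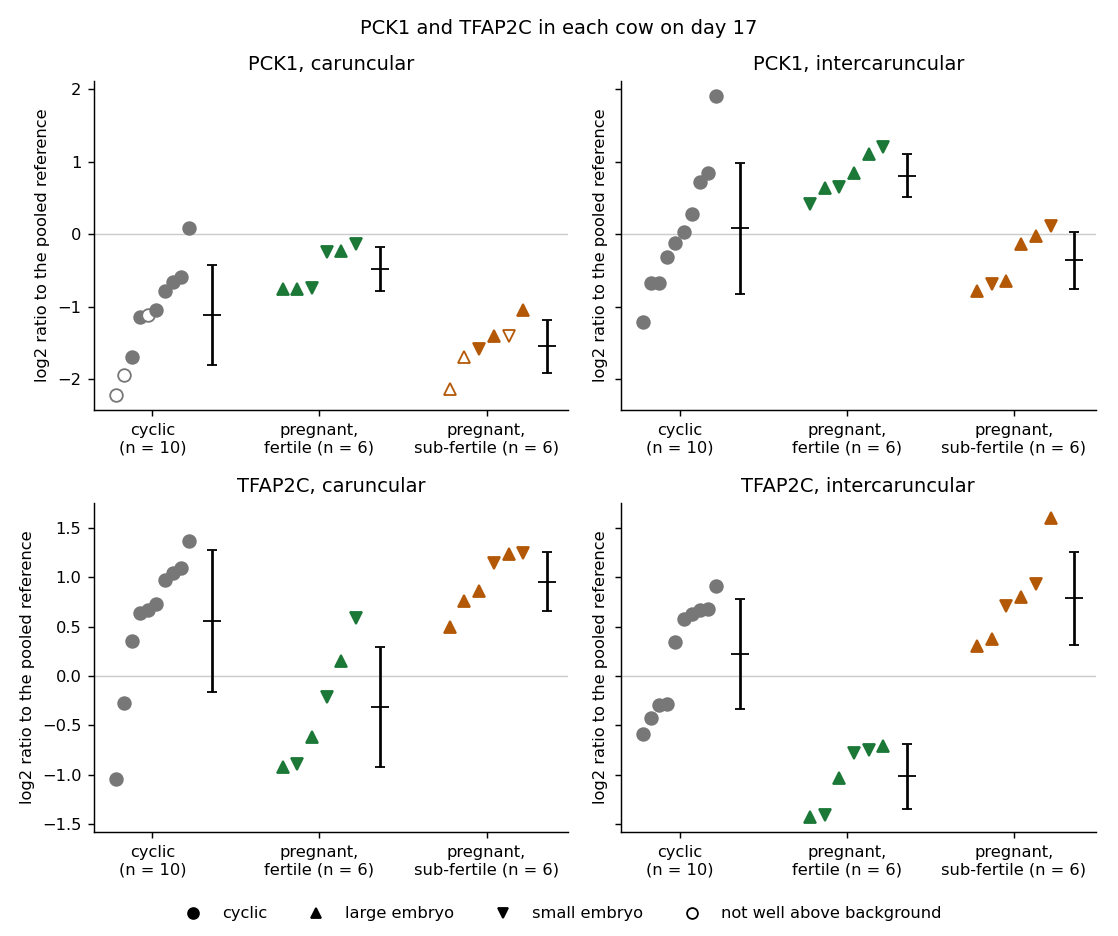
Log2 ratio to the pooled reference (y axis) of PCK1 and TFAP2C in each cow, by tissue and class (x axis). Each point is 1 cow, triangles point up for large and down for small embryos, open symbols were not well above background, and the bars give mean ± SD. PCK1 is higher in fertile than in sub-fertile cows in both tissues, TFAP2C is lower, and only caruncular TFAP2C overlaps between the classes.

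Over all tested probes with a value in every cow, 0.764% did not overlap between the fertility classes in caruncular and 1.41% in intercaruncular endometrium. Nothing is read from this, since the same difference chose the genes. By size of the difference, TFAP2C stood at place 11 of 14690 tested probes in intercaruncular and at place 49 in caruncular endometrium, and PCK1 at places 83 and 114. Slide and fertility class were largely tied, since in each tissue 4 of the fertile cows filled 1 slide and among the first arrays 1 slide alone held both classes. On that slide, with 2 fertile and 2 sub-fertile cows, the PCK1 difference was 1.68 in caruncular and 0.55 in intercaruncular endometrium. The TFAP2C difference there was -1.02 and -1.42. The repeat array of 1 fertile cow shared a further slide with 1 sub-fertile caruncular sample, with PCK1 at -0.23 and -1.41 and TFAP2C at 0.18 and 1.23. The direction was the same, but the size for PCK1 changed by more than 1.5 times in both tissues. With another background correction (normexp and loess) the caruncular PCK1 difference was 0.61.

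The PCK1 ratio of the cyclic cows ran from -1.21 over a median of -0.045 to 1.91 in intercaruncular and from -2.22 over a median of -1.08 to 0.09 in caruncular endometrium. In each tissue 3 of 10 cyclic cows had a PCK1 ratio at least as high as the lowest fertile cow. The fertile mean was above the cyclic mean by 0.73 in intercaruncular and by 0.64 in caruncular endometrium, and the sub-fertile mean differed from it by -0.44 and -0.43. These 2 differences share the cyclic cows.

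For TFAP2C the cyclic cows ran from -0.59 over a median of 0.46 to 0.91 in intercaruncular endometrium. No cyclic cow was as low as the highest fertile cow there, and 6 of 10 lay within the sub-fertile range. In caruncular endometrium they ran from -1.04 over a median of 0.70 to 1.37, with 6 of 10 in the sub-fertile and 2 of 10 in the fertile range. The fertile mean differed from the cyclic mean by -1.24 in intercaruncular and by -0.87 in caruncular endometrium, and the sub-fertile mean was higher by 0.56 and 0.40.

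The same cyclic cow stood at the fertile end for both genes in both tissues. It had the highest PCK1 ratio of the cyclic cows, 1.91 in intercaruncular and 0.09 in caruncular endometrium. Its TFAP2C ratio was the lowest of the cyclic cows, -0.59 and -1.04. The relation between the 2 genes was looked at in the 10 cyclic cows, which the choice of the genes did not use, after their values had been seen. In intercaruncular endometrium Pearson's r of PCK1 with TFAP2C was -0.69 (permutation p = 0.0247, adjusted 0.0495 over 4 relations) and Spearman's rho was -0.61 (permutation p = 0.0671, adjusted 0.134). In caruncular endometrium r was -0.43 (permutation p = 0.213, adjusted 0.284) and rho was -0.44 (p = 0.204, adjusted 0.272). Without the 2 cows farthest from the median of PCK1, r was -0.52 and 0.32, so the caruncular value rested on those cows.

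The 2 tissues of a cyclic cow were compared in the same way. For TFAP2C, caruncular and intercaruncular ratios gave r = 0.73 (permutation p = 0.00823, adjusted 0.0329) and rho = 0.62 (permutation p = 0.0603, adjusted 0.134), and r = 0.50 without the 2 farthest cows. For PCK1 r was 0.35 (permutation p = 0.327, adjusted 0.327) and rho was 0.27 (p = 0.449, adjusted 0.449), with r = 0.20 without the 2 farthest cows. All these permutation tests were two-sided. A slide holds at most 4 cyclic cows of a tissue, too few for a value within slides.

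**Figure D2:**
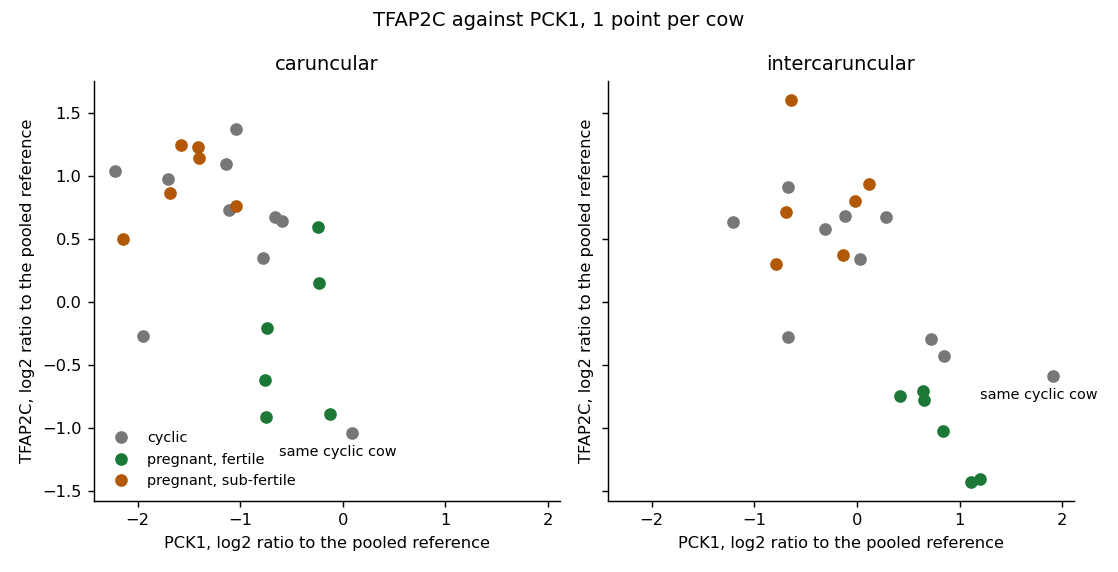
TFAP2C (y axis) against PCK1 (x axis), both as log2 ratios to the pooled reference, with 1 point per cow in each tissue. Fertile and sub-fertile cows form separate clouds in intercaruncular endometrium, with cyclic cows beside both, and the cyclic cow marked in both panels lies at the fertile end (PCK1 1.91 and TFAP2C -0.59).

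Pregnancy as such did not pass the test for either gene. In caruncular endometrium the PCK1 ratio ran from -2.14 over a median of -0.90 to -0.13 in the 12 pregnant cows, within the range of the cyclic cows. Pregnant minus cyclic was 0.10 ± 0.27 (SE, limma adjusted p = 0.809). In intercaruncular endometrium it was 0.14 ± 0.32 (limma adjusted p = 0.788). TFAP2C ran from -0.92 over a median of 0.54 to 1.24 in caruncular and from -1.43 over a median of -0.21 to 1.60 in intercaruncular endometrium of the pregnant cows, a range that holds all cyclic values of the latter. The change was -0.24 ± 0.31 (limma adjusted p = 0.606) in caruncular and -0.34 ± 0.34 (limma adjusted p = 0.508) in intercaruncular endometrium. At a change of 1.5-fold and an adjusted p under 0.05, 9.99% of 14690 tested probes were called in caruncular and 7.24% in intercaruncular endometrium. With samples treated as unpaired, the difference of this change between the tissues did not pass the test for either gene. It was -0.04 ± 0.43 (limma adjusted p = 0.999) for PCK1 and 0.10 ± 0.47 (limma adjusted p = 0.999) for TFAP2C. For this difference 0.0204% of the probes were called. With the slide as a fixed block, PCK1 gave 0.84 (caruncular) and -1.23 (intercaruncular) and TFAP2C gave -0.12 and 0.90. These values rest on the 1 slide per tissue that held both states among the first arrays. It held 3 sub-fertile cows and 1 cyclic cow, the same in both tissues, whose caruncular PCK1 signal was not well above background. They cannot stand for pregnant against cyclic cows in general.

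Of the other 12 genes of the gluconeogenesis list, 10 were tested for pregnancy. Of these, 2 rose in caruncular and 1 in intercaruncular endometrium, beside 9.99% and 7.24% of all tested probes called in either direction. So small a count is not read as a result about the pathway. PCK2, which encodes the mitochondrial form of the same enzyme, rose by 1.06 ± 0.22 (SE, limma adjusted p = 0.00116) in caruncular and by 0.83 ± 0.21 (adjusted p = 0.00833) in intercaruncular endometrium. FBP1, the gene of fructose-1,6-bisphosphatase (named by accession and description, while the design's name column has FBP2), rose by 2.09 ± 0.68 (adjusted p = 0.026) in caruncular endometrium and was 0.80 ± 0.54 (adjusted p = 0.311) in intercaruncular. The median change of the 10 genes was 0.21 in caruncular and 0.13 in intercaruncular endometrium, beside -0.04 and -0.02 over all tested probes. The gene of liver glucose-6-phosphatase, G6PC, was well above background in 0 caruncular samples and 1 intercaruncular sample.

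**Figure D3:**
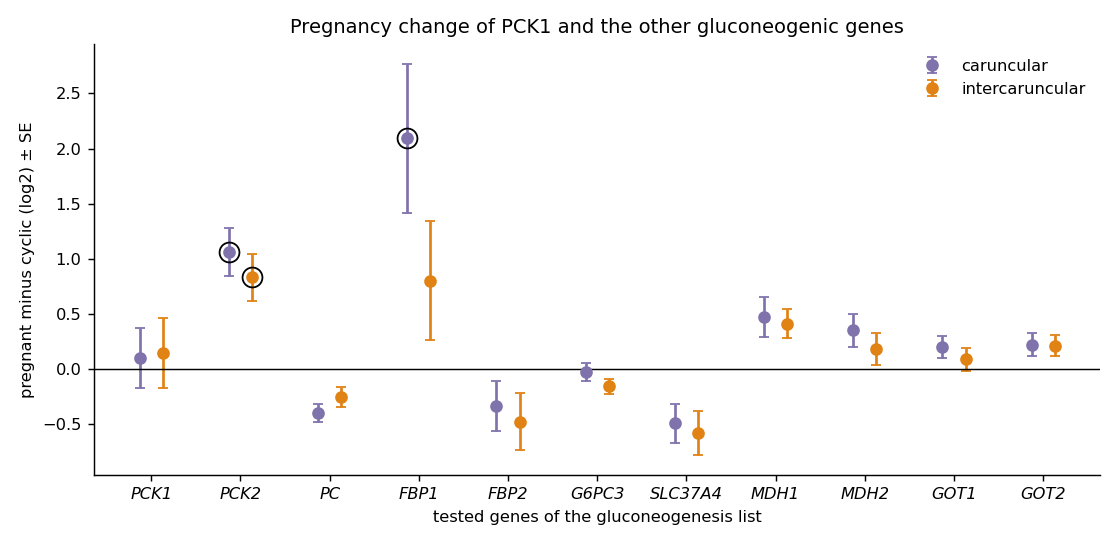
Pregnant minus cyclic difference of the log2 ratio (y axis, ± SE) for the tested genes of the gluconeogenesis list (x axis) in caruncular and intercaruncular endometrium. Rings mark changes past the threshold, which are PCK2 in both tissues and FBP1 in caruncular endometrium, while PCK1 lies near 0.

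FBP1 had the largest fertility value of the 10 genes, given here without a test: fertile minus sub-fertile was 2.27 in caruncular and 1.57 in intercaruncular endometrium. Its values varied widely among the same pregnant cows, with an SE of 1.09 and 0.74 for its embryo size difference. For PCK2 fertile minus sub-fertile was 0.30 and -0.10. The median over the 10 genes was 0.17 and 0.06, beside -0.03 and 0.01 over all tested probes. Of the 19 tested genes of glycolysis, limma called 0 for pregnancy in either tissue, with 8 and 5 of them at an unadjusted p under 0.05. Over all 14690 tested probes, 9.99% and 7.24% were called for pregnancy in caruncular and intercaruncular endometrium. An unadjusted p under 0.05 was met by 5751 and 5011 of them. The counts of this kind for pregnancy given below stand beside these.

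PCK1 also serves triglyceride synthesis. Of all tested probes, 9.99% were called for pregnancy in caruncular and 7.24% in intercaruncular endometrium. Of 16 tested genes of glyceride synthesis and storage, 3 rose and 1 fell in caruncular endometrium of pregnant cows. They were GK (glycerol kinase) at 0.78, FABP3 (a fatty acid carrier) at 2.13, PLIN2 (a lipid droplet coat protein) at 0.82 and GPD1L at -0.73, with limma adjusted p from 0.000262 to 0.000769. In intercaruncular endometrium FABP3 rose by 1.46 and PLIN2 by 0.62 (limma adjusted p = 0.00401 and 0.00807). Of 9 fat cell markers with a probe, 5 were tested and limma called 0 for pregnancy in either tissue, with 0 at an unadjusted p under 0.05. Of the others, ADIPOQ and LEP were well above background in 0 of the 44 samples, FABP4 in 12 caruncular and 4 intercaruncular samples and CIDEC in 4 and 1. Of 19 tested regulators of PCK1 transcription, 1 was called in each tissue, a smaller share than the 9.99% and 7.24% of all tested probes. CREB1, a factor that mediates cyclic AMP signals, rose by 0.71 (adjusted p = 0.00132) in caruncular endometrium. PPARG, a nuclear receptor of fat cells, fell by 0.89 (adjusted p = 0.0103) in intercaruncular endometrium, and no other regulator passed both limits in either tissue. In caruncular endometrium PPARG changed by -0.50, FOXO3 by -0.45 and EP300 by -0.21 (limma adjusted p = 0.00238, 0.00664 and 0.0343). These changes were past the limit for p and short of 1.5-fold.

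TFAP2C was the 1 member of its family that was tested. The probes of TFAP2A, TFAP2B, TFAP2D and TFAP2E were below the signal filter. TFAP2E was well above background in 6 caruncular and 8 intercaruncular samples, TFAP2A in 1 of each, TFAP2B in 1 and 2, and TFAP2D in 0. Of 9 tested AP-2 partners, KCTD15, known as a repressor of AP-2 activity, fell by 0.60 (limma adjusted p = 0.00119) in intercaruncular endometrium of pregnant cows. In caruncular endometrium its change was -0.51 (limma adjusted p = 0.0115), past the limit for p and short of 1.5-fold. By both limits limma called 0 of the 9 there, with 3 at an unadjusted p under 0.05. These counts stand beside the 9.99% (caruncular) and 7.24% (intercaruncular) of all probes called. In caruncular endometrium 5751 of all 14690 tested probes had an unadjusted p under 0.05.

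Since TFAP2C is a trophoblast gene, genes of the conceptus were examined beside it. Of 31 conceptus products with a probe, 29 were below the signal filter. Of these 29, 9 were well above background in 0 caruncular and 11 in 0 intercaruncular samples, among them the trophoblast interferon probes IFNT2 and TP-1 in both tissues. The TKDP5 probe, of a trophoblast protease inhibitor family, was well above background in 20 caruncular and 19 intercaruncular samples, of which 9 and 10 were from cyclic cows. No other probe of the 29 reached over 11 samples of a tissue, and the next was PAG10, a pregnancy-associated glycoprotein, with 6 and 8. PAG1 and PRP2 were tested, and limma called neither for pregnancy, with 1 of them at an unadjusted p under 0.05 in caruncular endometrium. Of 7 tested trophoblast transcription factors other than TFAP2C, limma also called 0 for pregnancy, with 1 and 3 of them at an unadjusted p under 0.05 in caruncular and intercaruncular endometrium. Over all 14690 tested probes, 9.99% and 7.24% were called, and 5751 and 5011 had an unadjusted p under 0.05. CDX2 and TEAD4, which set trophoblast fate, were below the filter. TFAP2C was well above background in all cyclic cows, which carried no embryo. Any part of the conceptus in the TFAP2C values of pregnant cows was not tested.

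Genes that are linked to AP-2 gamma in breast epithelium were examined as well. Of 14 tested, 1 rose and 6 fell in caruncular endometrium of pregnant cows, with a median change of -0.48, beside 9.99% of all tested probes called and a median of -0.04. Keratin 7 (KRT7) fell by 2.07 (limma adjusted p = 8.48e-06), the estrogen receptor gene ESR1 fell by 0.96 (adjusted p = 0.00232) and KRT19 fell by 0.77 (adjusted p = 0.00323), while CDH1, the gene of E-cadherin, rose by 1.02 (adjusted p = 0.00566). In intercaruncular endometrium 1 rose and 2 fell, with a median of -0.15, beside 7.24% called and a median of -0.02. Cell type markers moved in the same comparison, and 5 of the 14 genes (CDH1, KRT8, KRT18, KRT19 and MUC1) are also in the list of epithelium markers. Of 13 epithelium markers, 2 rose and 2 fell in caruncular endometrium (median -0.36), and 3 rose and 0 fell in intercaruncular (median 0.12). Of 6 markers of ciliated epithelium, 2 fell in caruncular endometrium (median -0.67), and limma called 0 in intercaruncular, with 0 at an unadjusted p under 0.05. In each tissue 4 of 9 endothelium markers fell (medians -0.45 and -0.49), as did 5 of 7 smooth muscle markers (medians -0.92 and -1.04). Of 9 stroma markers, 1 rose and 1 fell in caruncular and 3 fell in intercaruncular endometrium, and of 12 leukocyte markers 2 and 1 rose. The part of these cell types in the pregnancy changes was not tested. Fertile minus sub-fertile had a median of -0.14 in caruncular and -0.02 in intercaruncular endometrium over the 14 genes.

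Embryo size did not pass the test for either gene. In intercaruncular endometrium PCK1 ran from -0.79 over a median of -0.02 to 1.11 in the 7 cows with a large embryo and from -0.69 over a median of 0.42 to 1.20 in the 5 with a small one. TFAP2C ran from -1.43 over a median of 0.30 to 1.60 and from -1.41 over a median of -0.75 to 0.93. In caruncular endometrium PCK1 ran from -2.14 to -0.23 with a large and from -1.58 to -0.13 with a small embryo, and TFAP2C from -0.92 to 1.23 and from -0.89 to 1.24. The ranges of the embryo sizes overlapped for both genes in both tissues. Large minus small was -0.33 ± 0.35 (SE, limma adjusted p = 0.894) for PCK1 in caruncular and -0.20 ± 0.38 (adjusted p = 0.813) in intercaruncular endometrium. For TFAP2C it was -0.09 ± 0.45 (adjusted p = 0.983) and 0.24 ± 0.56 (adjusted p = 0.849). In caruncular endometrium limma called 0% of the tested probes at an adjusted p under 0.05, with 1014 at an unadjusted p under 0.05, and in intercaruncular endometrium it called 3.69%. Within a fertility class, large minus small lay between -0.21 and 0.10 for PCK1 and between -0.35 and -0.06 for TFAP2C over the 4 combinations of tissue and class, with 2 to 4 cows on a side. PCK2 was 0.56 ± 0.13 higher with large embryos in intercaruncular endometrium (limma adjusted p = 0.0382), as was GOT2, a mitochondrial aminotransferase, by 0.40 ± 0.07 (adjusted p = 0.0214).

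PCK1 was lower in caruncular than in intercaruncular endometrium. The caruncular sample had the lower ratio in 21 of 22 cows, among them all 12 pregnant cows, and the exception was 1 cyclic cow with a difference of 0.07. Caruncular minus intercaruncular ran from -2.94 over a median of -1.11 to 0.07 within a cow. The difference of -2.94 belongs to a cyclic cow whose caruncular signal, 23.2 units, was not well above background, and 5 other caruncular signals were not either, so the caruncular level of these 6 cows is uncertain. In the fit of all 44 samples, treated as unpaired, the difference was -1.21 ± 0.22 (SE, limma adjusted p = 7.66e-06). PCK1 met the limits for testing, a signal well above background that reached 80 units, in 17 intercaruncular but 9 caruncular samples, and so entered the test mainly through the tissue where it was higher. With all probes tested and no filter the difference was also -1.21 (limma adjusted p = 1.18e-05), and with normexp and loess it was -0.81 (adjusted p = 4.75e-06). The mean within-cow difference was -1.29 ± 0.54 (SD, n = 6) in fertile, -1.18 ± 0.54 (SD, n = 6) in sub-fertile and -1.19 ± 0.93 (SD, n = 10) in cyclic cows. Differences between the tissues were common, since 57.1% of the tested probes were called. Of the other 10 tested gluconeogenic genes, 4 were also lower in caruncular endometrium. They were PC, the gene of pyruvate carboxylase, by -0.46 ± 0.06 (limma adjusted p = 4.62e-08), FBP2 by -0.94 ± 0.18 (adjusted p = 1.95e-05), G6PC3 by -0.25 ± 0.05 (adjusted p = 7.76e-05) and SLC37A4, the glucose-6-phosphate carrier, by -0.52 ± 0.14 (adjusted p = 0.00154). Over all 14690 tested probes, 4444 were called lower there and 3950 higher.

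TFAP2C leaned the other way, with a higher ratio in the caruncular sample of 17 of 22 cows. Caruncular minus intercaruncular was 0.38 ± 0.24 (SE, limma adjusted p = 0.165) and did not pass the threshold when samples were treated as unpaired. Paired by cow (cow as fixed replicate block) it was 0.38 ± 0.11 (limma adjusted p = 0.00277), and with a random replicate block for the cow its adjusted p was 0.0241. The within-cow difference was 0.70 ± 0.63 in fertile, 0.17 ± 0.34 in sub-fertile and 0.33 ± 0.49 in cyclic cows. These differences between classes were not tested, and the highest within-cow difference of TFAP2C was 1.34, in 1 fertile and in 1 cyclic cow.

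**Figure D4:**
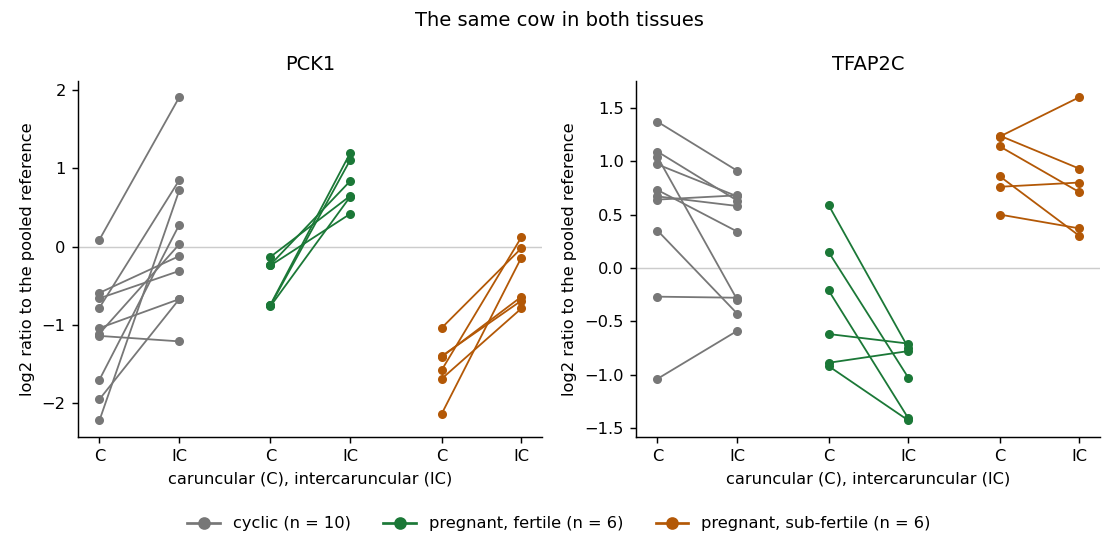
Log2 ratio to the pooled reference (y axis) in the caruncular (C) and intercaruncular (IC) sample of each cow, joined by a line, for PCK1 and TFAP2C in cyclic, fertile and sub-fertile cows (x axis). PCK1 is lower in the caruncular sample of 21 of 22 cows, and TFAP2C is higher there in 17 of 22.

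Most slides held 1 tissue, and the tissues were scanned in separate batches except for 2 slides. On these, 1 sub-fertile and 1 cyclic cow each had both tissues on 1 slide. Caruncular minus intercaruncular was -0.77 and -1.28 for PCK1, the direction seen in the other cows, and -0.37 and 0.00 for TFAP2C. With scan date as a fixed block the PCK1 difference was -1.03 and that of TFAP2C was -0.18, and neither was called. Only these 2 cows inform the tissue difference in that fit, since every other slide held 1 tissue of a batch. It therefore restates their values and is too small to decide whether the tissues differ.

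Markers of the cells that make up the 2 tissues also differed. All 6 tested markers of ciliated epithelium were lower in caruncular endometrium, with a median of -1.53, and of 13 markers of epithelium 9 were lower and 1, CDH1, was higher (0.68, limma adjusted p = 0.00136), with a median of -0.50. All 9 stroma markers were higher there, with a median of 0.76. Of 3 uterine gland markers 1 was lower (median 0.07), and of 9 endothelium markers 1 was higher and 3 were lower. Of 7 smooth muscle markers 3 were higher, of 12 leukocyte markers 2 were higher and 1 lower, and of 5 fat cell markers 2 were lower. These counts stand beside 57.1% of all 14690 tested probes called for tissue, 4444 lower and 3950 higher. FOXJ1, which drives the making of motile cilia, was below the signal filter, though well above background in 17 caruncular and 21 intercaruncular samples. The mean ratio of the 6 ciliated markers lay between -2.54 and -0.03 in caruncular and between -0.84 and 1.23 in intercaruncular samples. Between the fertility classes these markers lay from 0.11 to 0.60 in fertile and from -0.84 to 0.29 in sub-fertile intercaruncular samples, and from -2.08 to -0.36 and from -2.54 to -0.60 in caruncular ones. The mean of the 13 epithelium markers lay from -0.27 to 0.01 in fertile and from -0.11 to 0.51 in sub-fertile intercaruncular samples, overlapping in part. The part of these cell types in the PCK1 and TFAP2C results was not tested.

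The probes most like PCK1 over the 44 samples were KIAA1505 with Pearson's r of 0.86, NME5 with 0.83, TTLL9 and CFAP221 with 0.82 each and DRC3 with 0.81. After the 4 means of tissue and state were subtracted, they were KIAA1505 (0.79), CNGA3 (0.74), DNAAF6 (0.73), ANXA8L1 (0.73) and NME5 (0.72). Those most like TFAP2C were ADGRL4 and MARCKS with 0.71 each, and MSTN, WNT6 and TNFRSF11B with 0.69 each. After the subtraction they were NPNT, AJAP1 and MARCKS with 0.73 each, and WNT6 and MSTN with 0.71. PCK1 and TFAP2C had r of -0.64 with each other, and -0.65 after the subtraction. These values describe the 44 samples of 22 cows, which share slides and the reference pool, and they contain the fertility difference that chose the genes. Within a class of 6 cows, r of PCK1 with TFAP2C was 0.38 (fertile) and 0.45 (sub-fertile) in caruncular endometrium. In intercaruncular endometrium it was -0.95 and -0.006. No test was made within the classes.

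PCK1 and TFAP2C lie near each other on bovine chromosome 13 in the ARS-UCD2.0 assembly, with 13 annotated genes between them, 5 of them protein-coding. The coding ones are RBM38, CTCFL, RAE1, SPO11 and BMP7, and RAE1 and BMP7 were tested. With the nearest 10 named genes on either outer side, 33 neighbours were examined and 13 tested. The classes overlapped for all 13 neighbours in both tissues, as they did for all but 0.764% (caruncular) and 1.41% (intercaruncular) of the tested probes, so nothing particular to the neighbours is read from it. The size of their fertility difference had a median of 0.15 in caruncular and 0.28 in intercaruncular endometrium, beside 0.139 and 0.145 over all tested probes. The largest was that of BMP7, a growth factor of the TGF-beta family that lies directly before TFAP2C among the coding genes, with -0.312 and -0.528. GNAS, on the outer side of PCK1, was close to it with -0.276 and -0.525. RAE1, a nuclear export factor between the 2 genes, had -0.07 and -0.09.

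**Figure D5:**
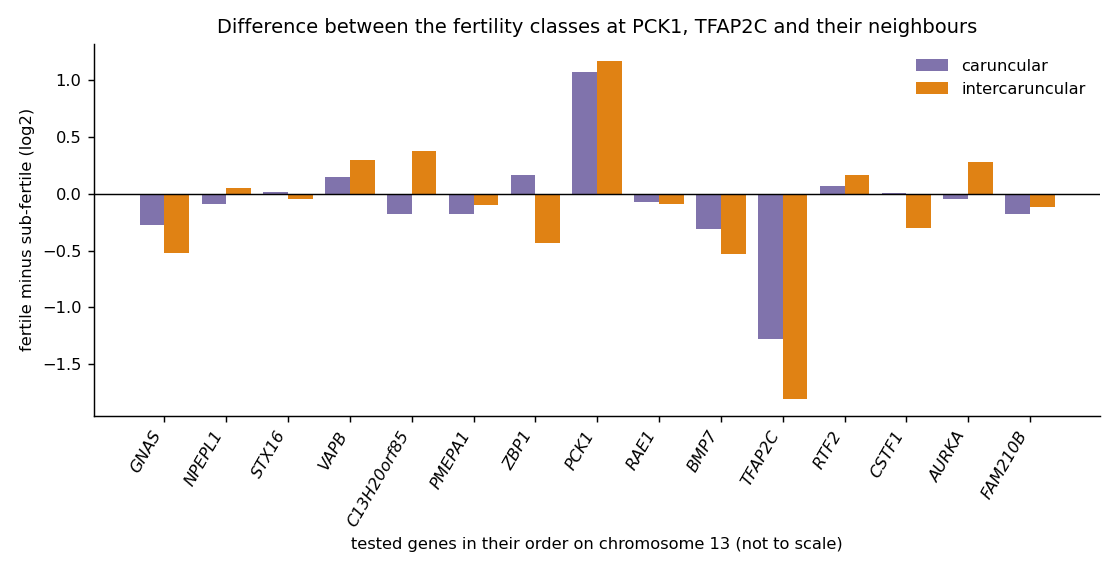
Fertile minus sub-fertile difference of the log2 ratio (y axis) for PCK1, TFAP2C and the 13 tested neighbours in their order on chromosome 13 (x axis, not to scale), in caruncular and intercaruncular endometrium. PCK1 (1.07 and 1.17) and TFAP2C (-1.27 and -1.80) were chosen for this difference, and no neighbour exceeds 0.53 in size.

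ZBP1, the coding gene next to PCK1 and a sensor of nucleic acids induced by interferon, rose in pregnant cows by 3.76 (limma adjusted p = 1.61e-11) in caruncular and by 2.53 (adjusted p = 1.08e-07) in intercaruncular endometrium, and was 1.14 higher with large embryos in the latter (adjusted p = 0.0329). Its fertility difference was 0.16 and -0.43. No other tested neighbour passed the threshold for pregnancy. For tissue, 9 of the 13 neighbours were called, among them C13H20orf85 by -1.45 (limma adjusted p = 4.81e-08), CSTF1 by 1.22 (adjusted p = 1.75e-11) and BMP7 by 0.53 (adjusted p = 0.00132), beside 57.1% of all tested probes.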

How the data were processed

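Per the file headers, the authors extracted the spot intensities with Agilent Feature Extraction 9.5.3.1, which subtracted background, flagged outlying spots and normalised the dyes by LOWESS. The deposited log10 ratios (Cy5 sample over Cy3 pool) were put on the log2 scale, and the 2 spots of a probe were averaged without those flagged as outlying. Each array was centred on its median, which changed nothing, since the median over all probes was 0 on every array. The mean of repeated arrays was used, and each cow counts as 1 replicate per tissue. The authors' deposited matrix of log2 ratios served as an alternative. It differed from the scanner values of the 2 genes by at most 0.163.

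A probe was tested when 22 or more of the 44 samples had a signal that was well above background and reached 80 units (14690 probes). PCK1 met both limits in 26 samples and TFAP2C in 40. Groups were compared with limma 3.58.1 (lmFit, eBayes) in R 4.3.3 with Benjamini-Hochberg adjustment over all tested probes. The procedure was tested on simulated data. Pregnancy was called at 1.5-fold and an adjusted p under 0.05, other comparisons at an adjusted p under 0.05. Relations among cyclic cows were tested with 100000 permutations. Number of arrays limits the precision.

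The labels give both samples of a cow the same number, so the tissues can be paired by cow. The main fits of the tissue difference, and of the difference of the pregnancy change between tissues, treated the 44 samples as unpaired. Pairing by cow was an alternative. Over 14359 probes the deviations of the 2 samples from their group means correlated in all 22 cows (r from 0.11 to 0.87, median 0.62).

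The genes and the gene lists were chosen with earlier results of these data known. Of each list at most 4 genes past the threshold with the smallest p were named per tissue. The 5 probes most like each gene, and the neighbours on the chromosome, were named from the array's symbols and the reference table of ARS-UCD2.0. Of 21475 probes, 3524 were named by accession and 9987 by gene number. A gene with several tested probes was represented by the brightest. Alternatives were no filter, a filter of 33 samples, no centring, normexp (offset 50) with loess, the methods' t-test in Welch's form, single arrays, slide, scan date or cow as blocks, labels as covariates and each cow left out. Chosen after the data were seen were centring on the tested probes, scan date as a block for the tissues and the relations among cyclic cows.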

Additional observations from a re-analysis of the deposited data

How the results depend on the processing

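Of the alternatives to the 16 results, fits with 1 cow left out included, 421 values kept their direction and, where tested, their side of the threshold. The untested fertility values among them moved by less than the pooled SD within the classes. A further 25 values changed direction, 5 fertility values moved by more than that SD, 2 values came to pass and 1 ceased to pass. Not all of the 421 values could change. Leaving out the centring repeats the main fit, and single arrays cannot alter fits of intercaruncular samples alone, since only caruncular samples were repeated. The count is therefore not read as a measure of robustness. The cause of the changes below was not tested. PCK1 was left out by the filter of 33 samples. The tissue difference of PCK1 was -1.03 and not called with scan date as a fixed block, and that of TFAP2C turned to -0.18. Both values rest on the 2 cows with both tissues in 1 scan batch. Paired by cow, in a fixed or random replicate block, the TFAP2C difference stayed 0.38 and was called. The block changed no other call. The fertility difference of PCK1 was 0.61 (caruncular) and 0.81 (intercaruncular) with normexp and loess. With slide as fixed block it was 1.68 and 0.55, the values of the 1 slide per tissue that held both classes. The fertility difference of TFAP2C in intercaruncular endometrium was -1.32 with normexp and loess. Of the results that did not pass the test, the pregnancy change in intercaruncular endometrium turned with slide as fixed block to -1.23 (PCK1) and 0.90 (TFAP2C). These 2 values rest on 3 sub-fertile cows and 1 cyclic cow of 1 slide. For PCK1 this change turned to -0.074 with slide as random block. The difference of the pregnancy change between tissues turned with slide as random block to 0.33 (PCK1) and -0.11 (TFAP2C), and for TFAP2C to -0.0083 with normexp and loess. The embryo size difference in intercaruncular endometrium turned with fertility class as a covariate to 0.0023 (PCK1) and -0.067 (TFAP2C), and for TFAP2C to -0.026 with scan date as a fixed block.

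With each cow left out in turn, uncalled values near 0 changed sign. For PCK1 the difference of the pregnancy change between tissues ran from -0.24 to 0.10 (positive without any 1 of 4 cyclic, 2 fertile and 1 sub-fertile cow), the caruncular pregnancy change from -0.022 to 0.23 (negative without the cyclic cow of the lowest ratio) and the intercaruncular embryo size difference from -0.46 to 0.017 (positive without the fertile cow of the highest ratio). For TFAP2C the embryo size difference ran from -0.41 to 0.12 in caruncular (positive without any 1 of 2 fertile and 2 sub-fertile cows) and from -0.044 to 0.54 in intercaruncular endometrium (negative without 1 fertile or 1 sub-fertile cow). The PCK1 tissue difference ran from -1.28 to -1.12 and stayed called. The PCK1 signal, not well above background in 6 of 22 caruncular samples, limits the caruncular values.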
